A study of Homo sapiens with 9 samples.

Results

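Long noncoding RNAs are transcripts of RNA polymerase II that are not translated into a known protein. The 7 described here are MALAT1, NEAT1, KCNQ1OT1, TUG1, OIP5-AS1, NORAD and PVT1. They were chosen by name, with earlier results of these data known, and are 7 of the 58425 genes to which the reads could be assigned. Nuclear RNA of U2OS, a human osteosarcoma line and the only cell line sampled, was sequenced in 9 libraries of 3 groups. All cells had been transfected for 48 hours with 15 nM of an siRNA, which had no stated target (siControl) or targeted dyskerin (siDyskerin) or GAR1 (siGAR1). Each group held 3 biological replicates. Dyskerin, the product of DKC1, is the pseudouridine synthase of the H/ACA complex, and GAR1 is one of its core proteins. The comparisons address whether loss of either protein alters the relative steady-state level of these RNAs within nuclear RNA. Counts were scaled between libraries, so a change in total nuclear RNA would not be seen. The paper does not exclude such a reduction.

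These RNAs differ in what they do and in where they act. NEAT1 is the scaffold of paraspeckles, nuclear bodies that form only around its long isoform, whereas MALAT1 is held in nuclear speckles, the compartments rich in splicing factors. KCNQ1OT1 is transcribed antisense to KCNQ1 from the paternal chromosome and silences neighbouring imprinted genes in cis. PVT1 lies beside the oncogene MYC, TUG1 is found in both the nucleus and the cytoplasm, and NORAD and OIP5-AS1 (also known as Cyrano) are known chiefly for what they bind, Pumilio proteins and the microRNA miR-7, respectively. With no cytoplasmic library in the series, retention in the nucleus could not be measured for any of them.

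MALAT1 and the long NEAT1 isoform lack an ordinary poly(A) tail. RNase P cuts both RNAs before a tRNA-like structure, and the end left behind is protected by a triple helix with an A-rich run. The letters below are shown because they are the feature by which long NEAT1 and MALAT1 differ from short NEAT1. They were read from the GENCODE 44 transcripts on GRCh38, are written as DNA from 5′ to 3′ and lie on the plus strand of chromosome 11. The 30 bases before the tRNA-like RNA of MALAT1 (chr11:65506087-65506116) and the last 30 bases of NEAT1-202 (chr11:65445511-65445540) carry in capitals the longest run in which both end. The last 30 bases of NEAT1-209, a short NEAT1 transcript (chr11:65426484-65426513), carry a polyadenylation signal in capitals.
MALAT1 before the tRNA-like RNA: ttttctagcttaaaaaaaaAAAAAGCAAAA
NEAT1-202 end: ctgtgaaagagtgagcaggAAAAAGCAAAA
NEAT1-209 end: tcttcccctttacagcacaAATAAAgtttg
The run of 11 bases ended 4 of the 252835 annotated transcripts (0.00158%), searched on the strand of the RNA. AATAAA stood in the last 50 bases of 28.1% of them.

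NORAD binds Pumilio proteins through repeats of the element TGTANATA, and OIP5-AS1 pairs with miR-7 through a site of near-complete complementarity. The closest pair of elements in NORAD-201 (chr20:36049497-36049525, minus strand, in the gene's single annotated exon) is shown with the elements in capitals. The mature miR-7, from RefSeq, is shown with its seed in capitals, followed by the OIP5-AS1 site (chr15:41300574-41300599, plus strand, exon 4 of 4 of OIP5-AS1-201) with the match to the seed in capitals.
NORAD pair of elements: tatctgTGTATATAgTGTACATAaaggac
hsa-miR-7-5p: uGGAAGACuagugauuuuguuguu
OIP5-AS1 site: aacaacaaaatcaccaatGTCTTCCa
TGTANATA occurred 15 times in NORAD-201 (5401 nt in GENCODE 44). Of 5883 transcripts of 5 to 6 kb, 46% held the element at all, the median number was 0, and 3 held at least as many as NORAD. KCNQ1OT1-201 held 9 in a far longer RNA, NEAT1-202 held 6, TUG1-201 held 2, OIP5-AS1-201 held 1, and MALAT1-202 and PVT1-212 held 0. The seed match GTCTTCC occurred 3 times in OIP5-AS1-201. Of 1346 transcripts of 8 to 9 kb, 51% held it and 4.61% held at least 3, and 1 of the 3 matches in OIP5-AS1-201 was preceded by the full complement of the last 12 bases of miR-7. These matches describe the letters, and neither Pumilio binding nor miR-7 was measured here.

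The libraries held 48838756 to 90698675 summed reads. Reads were counted once in every transcript they fit, so that a gene's sum can be set against itself in another group but not against another gene. In 1097 nested pairs the shorter transcript was a contiguous piece of the longer, with the same introns. In these the longer never had fewer reads in any library. Only transcripts unchanged in GENCODE 44 entered, so none of the NEAT1 and MALAT1 pairs compared below did. Normalized counts are such sums scaled to the mean library. After dyskerin knockdown DKC1 fell by 2.79 on the log2 scale (SE 0.07, adjusted p = 1.46e-11 in the quasi-likelihood test of edgeR; SE, standard error), and after GAR1 knockdown GAR1 fell by 2.68 (SE 0.12, adjusted p = 6.12e-08). Per length, as TPM (reads per length, scaled to a fixed sum per library) of a gene's most-read transcript, the mesenchymal marker VIM had a median of 322 and SPARC 72.9, COL1A1 2.91 and RUNX2 0.864, against 0.401 for the epithelial EPCAM, 0.146 for CDH1 and 0.0158 for the leukocyte gene PTPRC. The epithelial keratin KRT18, at 42.1, was not low. In bulk RNA a smaller amount per cell and fewer cells with the RNA cannot be told apart.

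The name of the set calls the RNAs abundant, and this held for only some. Levels were compared per length, as the TPM of the transcript with the most reads in each gene. MALAT1 had the highest level, from 57.5 to 92.3 TPM over the 9 libraries with a median of 70.5, and ranked 239th of 58425 genes by its mean of 70.1 TPM. NORAD followed at 18.2 to 22.4 TPM (mean 19.7, rank 1020). PVT1 (8.69 to 11.7 TPM), NEAT1 (7.07 to 11.1 TPM) and TUG1 (8.20 to 9.45 TPM) overlapped one another across the libraries and cannot be put in order beyond their spread, at ranks of 2091, 2434 and 2502. OIP5-AS1 ranged from 1.91 to 2.84 TPM (rank 7111), and KCNQ1OT1, a transcript of 91667 nt, from 0.10 to 0.17 TPM (rank 17791). By this measure MALAT1, NORAD, the group of PVT1, NEAT1 and TUG1, OIP5-AS1 and KCNQ1OT1 formed 5 levels with no overlap between neighbours. For NEAT1 the most-read transcript was NEAT1-202 (22743 nt), the long isoform. Short NEAT1 transcripts were read more densely per kb, as given below, so the place of NEAT1 depends on the transcript chosen.

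**Figure D1:**
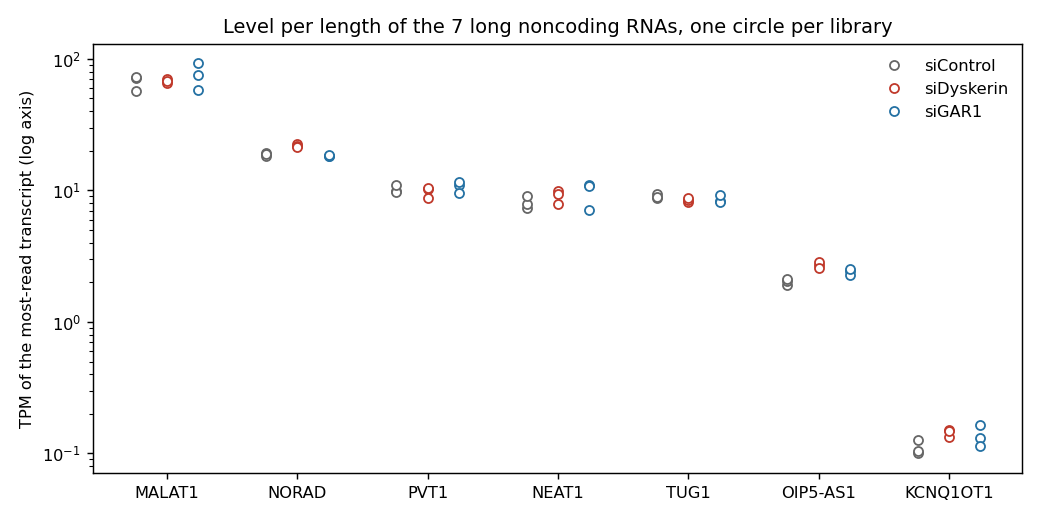
TPM of the most-read transcript of each gene (log axis) in the 9 libraries, 1 circle per library, with siControl in grey, siDyskerin in red and siGAR1 in blue. MALAT1 lies between 57.5 and 92.3 TPM and KCNQ1OT1 between 0.10 and 0.17 TPM, and the libraries of PVT1, NEAT1 and TUG1 overlap.

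None of the 7 genes passed the test after dyskerin knockdown, at an adjusted p under 0.01 over all 18444 genes tested, against 6.4% of all genes. At an unadjusted p under 0.05 there were 3, KCNQ1OT1, OIP5-AS1 and NORAD, all with higher counts in siDyskerin, beside 26.1% of all genes. DESeq2 passed 1, NORAD, beside 10.3% of all genes. NORAD (ENSG00000260032.2; chr20:36045618-36051018, minus strand) had 4810.3, 5267 and 5319 normalized counts in siControl and 5903, 5977 and 6098 in siDyskerin. Every siDyskerin library lay above every siControl library, and the group means were 5132 ± 280 and 5993 ± 98.9 (SD, n = 3). The log2 fold change was 0.22 (SE 0.06, adjusted p = 0.028 from edgeR). It passed in DESeq2 (adjusted p = 0.0045) and, with replicate numbers as a block in the siControl and siDyskerin libraries alone, in edgeR (adjusted p = 0.0064).

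KCNQ1OT1 (ENSG00000269821.2; chr11:2597308-2700003, minus strand, within KCNQ1 on the opposite strand) had the largest log2 fold change of the 7. Its normalized counts were 622, 651 and 814 in siControl and 911, 841 and 945 in siDyskerin. The groups did not overlap. The means were 696 ± 104 and 899 ± 52.7 (SD, n = 3), a log2 fold change of 0.37 (SE 0.13, adjusted p = 0.079 from edgeR). It passed with the replicate block on the siControl and siDyskerin libraries alone (log2 fold change 0.38, adjusted p = 0.0090), where 12.6% of all genes did. With the block on all 9 libraries the adjusted p was 0.017, and with those 2 groups and no block it was 0.041.

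OIP5-AS1 (ENSG00000247556.7; chr15:41283958-41322392, plus strand) had 1834, 2093 and 2204 normalized counts in siControl and 2391, 2487 and 2271 in siDyskerin. The groups did not overlap, with means of 2044 ± 189.7 and 2383 ± 108 (SD, n = 3). The log2 fold change was 0.22 (SE 0.08, adjusted p = 0.076 from edgeR), or 0.14 without siControl replicate 1. With only the most-read transcript counted it passed, at 0.41 (adjusted p = 0.00039), whereas counts made from length-scaled TPM gave 0.03 (adjusted p = 0.91). Its annotated locus overlaps NUSAP1 and another protein-coding gene on the same strand. Whether their exons overlap, so that reads are shared, was not tested. Antisense partners, such as KCNQ1 for KCNQ1OT1, were kept apart by the stranded counting.

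TUG1 (ENSG00000253352.10; chr22:30969245-30979395, plus strand), which GENCODE 44 types as protein-coding, was the one of the 7 that lay lower in all siDyskerin libraries. It had 9979.8, 10825 and 10247 normalized counts in siControl and 9214, 9531 and 9726 in siDyskerin, a log2 fold change of -0.13 (SE 0.06, adjusted p = 0.20 from edgeR). Groups that did not overlap were common, at 31.4% of all genes tested, and 4 of the 7 RNAs were among them. For MALAT1, NEAT1 and PVT1 the groups overlapped. MALAT1 (ENSG00000251562.11; chr11:65497640-65508073, plus strand) had 47662, 61419 and 64591 normalized counts in siControl and 54084, 60906 and 60160 in siDyskerin, a log2 fold change of 0.01 with a 95% interval from -0.27 to 0.30. NEAT1 (ENSG00000245532.11; chr11:65422774-65445540, plus strand) had 11432, 12387 and 14086 in siControl and 14495, 12155 and 14556 in siDyskerin, a log2 fold change of 0.12 (95% interval -0.16 to 0.40). PVT1 (ENSG00000249859.14) had 5591, 5276 and 5666 in siControl and 5597, 5078 and 5492 in siDyskerin, a log2 fold change of -0.03 (95% interval -0.20 to 0.14). The intervals of MALAT1, NEAT1 and PVT1 thus held 0 and excluded a change of the relative level by a factor of 2 in either direction.

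**Figure D2:**
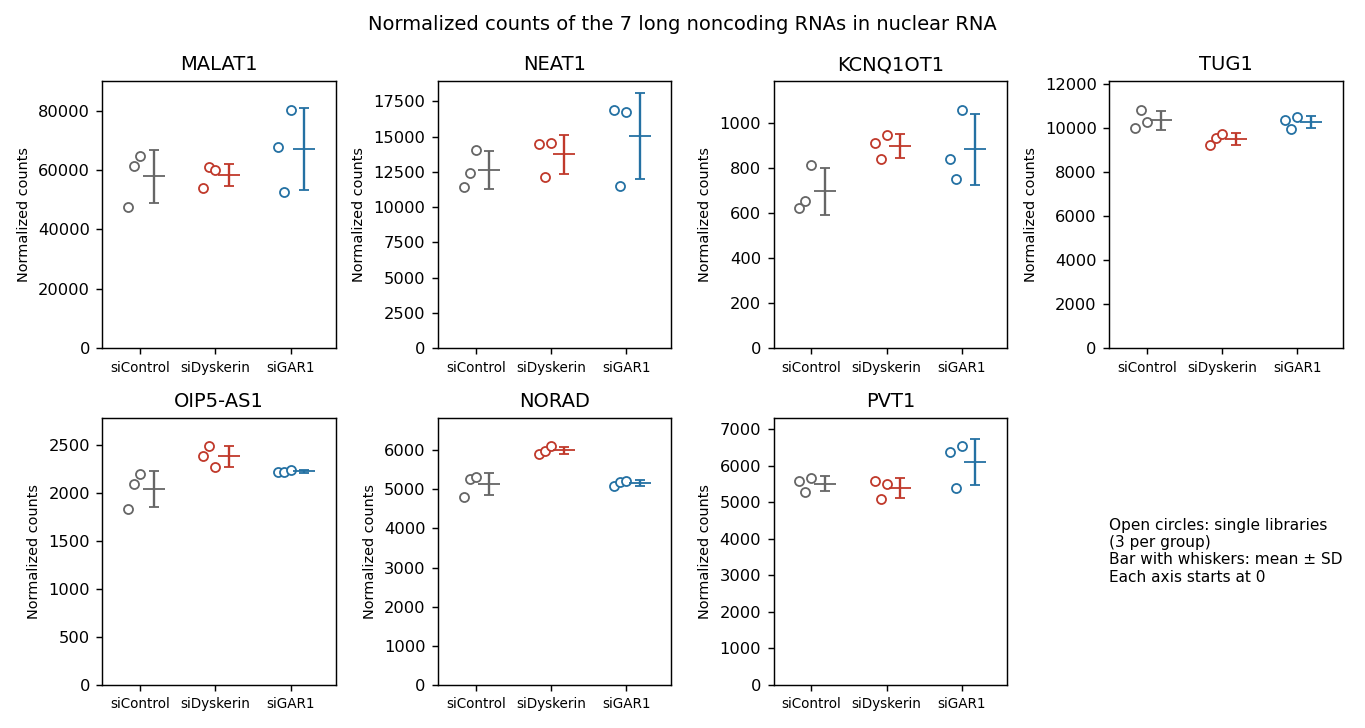
Normalized counts of the 7 genes, 1 panel each with an axis from 0, in siControl (grey), siDyskerin (red) and siGAR1 (blue). Each open circle is 1 library, and bars with whiskers give the mean ± SD (n = 3). The siDyskerin circles of NORAD lie above all others (5903 to 6098), and the siGAR1 circles of MALAT1 spread most (52689 to 80324).

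After GAR1 knockdown 0 of the 7 genes passed in edgeR, against 3.42% of all genes tested, and 0 passed in DESeq2, against 6.95%. KCNQ1OT1 was the 1 gene with an unadjusted p under 0.05 in edgeR, beside 24% of all genes. Its normalized counts in siGAR1 were 838, 749.6 and 1059, and 1 of these lay within the siControl range. The mean was 882 ± 159 (SD, n = 3), a log2 fold change of 0.34 (SE 0.13, adjusted p = 0.12 from edgeR), which was 0.19 without siGAR1 replicate 3 (adjusted p = 0.38). NEAT1 had 16916, 11519 and 16749 normalized counts in siGAR1, a log2 fold change of 0.25 (adjusted p = 0.25), with 0.41 without siGAR1 replicate 2 (adjusted p = 0.027) and 0.15 without replicate 1. MALAT1 had 67805, 52689 and 80324, a log2 fold change of 0.21 (adjusted p = 0.37), with 0.35 without siGAR1 replicate 2, 0.05 without siGAR1 replicate 3 and 0.08 without siControl replicate 1. PVT1 had 6383, 5386 and 6535, a log2 fold change of 0.15 (adjusted p = 0.28), with 0.22 without siGAR1 replicate 2 and 0.087 without replicate 3. In NEAT1, MALAT1 and PVT1 alike, replicates 1 and 3 of siGAR1 lay above every siControl library while replicate 2 lay within the siControl range. OIP5-AS1 was the 1 gene whose groups did not overlap, against 27.7% of all genes tested. Its 2218, 2215.5 and 2242 normalized counts in siGAR1 lay just above the highest siControl library, and the log2 fold change was 0.12 (adjusted p = 0.36), or 0.05 without siControl replicate 1. NORAD had 5074, 5187 and 5219 and TUG1 10345, 9962 and 10479 in siGAR1. Their log2 fold changes were 0.01 (95% interval -0.13 to 0.14) and -0.01 (95% interval -0.14 to 0.11).

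The difference between the knockdowns was tested directly, since the siControl libraries are shared by both comparisons above. None of the 7 genes passed in edgeR between siDyskerin and siGAR1, against 5.39% of all genes tested. There were 2 with an unadjusted p under 0.05, NORAD and PVT1, beside 25.5% of all genes, and 1, NORAD, passed in DESeq2, beside 9.21%. NORAD was higher in every siDyskerin library than in any siGAR1 library, with a log2 fold change of 0.22 (SE 0.06, adjusted p = 0.037 from edgeR and 0.0069 from DESeq2). PVT1 gave -0.18 (SE 0.08, adjusted p = 0.17), with overlapping groups. OIP5-AS1 (0.10, adjusted p = 0.47) and TUG1 (-0.11, adjusted p = 0.25) had groups that did not overlap, as had 29.8% of all genes tested. For KCNQ1OT1 the log2 fold change between the knockdowns was 0.03 (95% interval -0.25 to 0.31).

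**Figure D3:**
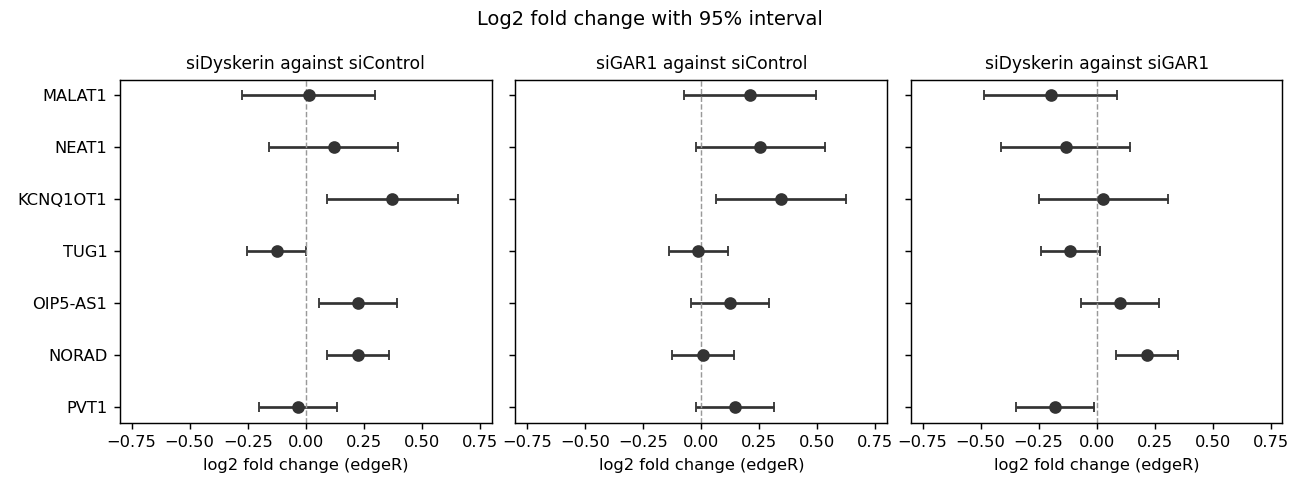
Log2 fold changes of the 7 genes with 95% intervals from edgeR in the 3 comparisons, and a dashed line at 0. NORAD lies at 0.22 in both comparisons of siDyskerin and at 0.01 for siGAR1 against siControl, and KCNQ1OT1 lies at 0.37 and 0.34 against siControl.

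The median log2 fold change of the 7 genes was 0.12 after dyskerin knockdown and 0.15 after GAR1 knockdown, with 5 and 6 genes above 0. Over all genes tested the medians were 0.0033 and 0.0089, and over the 2518 long noncoding RNA genes tested they were 0.03 and 0.05. Medians differed with the length of a gene's longest transcript. They were 0.03 and 0.01 for the 3745 genes of 5 to 10 kb, which include MALAT1, TUG1, OIP5-AS1 and NORAD, and -0.01 and 0.10 for the 33 genes of at least 20 kb, which include NEAT1 and KCNQ1OT1. Of the long noncoding RNA genes, 2.07% passed after dyskerin knockdown, 0.635% after GAR1 knockdown and 1.59% between the knockdowns.

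The spread between replicates separated the RNAs into those that varied and those that did not. The standard deviation of log2 CPM (counts scaled to a fixed library total) within groups, pooled over the 3 groups, was 0.23 in MALAT1, 0.22 in NEAT1 and 0.20 in KCNQ1OT1. The median over 5449 genes with a mean of at least 5 on that scale was 0.09. More than 97% of those genes varied less than MALAT1 (98.5%), NEAT1 (98.3%) or KCNQ1OT1 (97.1%), the last of which lies below that level itself at 3.6. TUG1 (0.05) and NORAD (0.05) varied less than most, with 6.22% and 8.02% of those genes below them, and OIP5-AS1 (0.09) and PVT1 (0.10) were near the median. The highest library exceeded the lowest in siControl, siDyskerin and siGAR1 by factors of 1.36, 1.13 and 1.52 in MALAT1, of 1.23, 1.2 and 1.47 in NEAT1 and of 1.3, 1.1 and 1.4 in KCNQ1OT1, so that siGAR1 was the widest and siDyskerin the narrowest for all 3. For NORAD they were 1.11, 1.03 and 1.03, and for OIP5-AS1 1.2, 1.1 and 1.0. The share of reads in retained-intron transcripts (12.1 to 12.6%) moved little across the libraries. In mitochondrial genes the share ran from 0.087 to 0.127%. It was 0.102, 0.115 and 0.102% in siControl, 0.087, 0.091 and 0.1% in siDyskerin and 0.107, 0.114 and 0.127% in siGAR1. Every siGAR1 library thus lay above every siDyskerin library. Summed reads, in which a read is counted in every transcript it fits, were 76028664, 70456622 and 55766290 in siGAR1 replicates 1 to 3. The part of library size in the spread was not tested.

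The long and short isoforms of NEAT1 were then compared. NEAT1-202, of 22743 nt, contains nearly all of the short isoform at its 5′ end. Reads per kb of a short transcript were therefore set against reads per kb of the rest of NEAT1-202. This rest was formed by subtracting the reads and the length of the short transcript from those of NEAT1-202. It was not counted from read positions. With NEAT1-204 (572 nt), the nested transcript with the most reads, the density of the short over that of the rest of NEAT1-202 was 2.27, 2.16 and 1.83 in siControl, 1.84, 2.03 and 1.93 in siDyskerin and 1.67, 2.26 and 1.99 in siGAR1. NEAT1-204 was thus read about as much more densely than this rest in each group, at 2.08 ± 0.23, 1.94 ± 0.09 and 1.97 ± 0.29 (SD, n = 3). The rest is not sequence of the long isoform alone. NEAT1-204 ends at position 65424404 and NEAT1-201 at 65426457, so other short transcripts cover part of it. With NEAT1-201 (1811 nt), the short transcript with the most reads, the ratios were 2.93 ± 0.27, 2.64 ± 0.02 and 2.70 ± 0.32. It was chosen after the values were seen. Its exons do not lie wholly within NEAT1-202, so it falls outside the rule for nested transcripts and these ratios are approximate. On the log2 scale the long over short ratio with NEAT1-204 differed by 0.10 between siDyskerin and siControl (exact two-sided permutation test, p = 0.4), by 0.08 between siGAR1 and siControl (exact p = 0.6) and by 0.02 between the knockdowns (exact p = 0.9). With 3 libraries against 3 this test cannot give a p under 0.10. Reads across a splice junction of a short transcript cannot be placed on the unspliced long one, and their effect on these ratios was not tested.

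In MALAT1, where the rest was formed by the same subtraction, the ratio depended on the nested transcript. The limit given above for reads across splice junctions holds here too. MALAT1-201 (1519 nt), the one with the most reads within MALAT1-202 (8708 nt), had a density over that of the rest of MALAT1-202 of 0.94, 1.00 and 1.04 in siControl, 0.95, 0.97 and 0.98 in siDyskerin and 1.03, 0.93 and 1.00 in siGAR1. The densities of MALAT1-201 and of the remainder were thus close in every group, at 0.99 ± 0.05, 0.97 ± 0.01 and 0.99 ± 0.05 (SD, n = 3). The log2 ratios of long over short differed by 0.03 after dyskerin knockdown (exact two-sided permutation test, p = 0.5), 0.01 after GAR1 knockdown (exact p = 0.8) and 0.03 between the knockdowns (exact p = 0.6). The direction of each changed with the nested transcript taken as the short one. With the 13 other nested transcripts, the mean log2 ratio of long over short was above 0 in all groups for 11 and below 0 in all groups for 2. In siControl it reached 2.31 with MALAT1-210 and was lowest with MALAT1-205, at -0.47, where siDyskerin had -0.46 and siGAR1 -0.41.

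**Figure D4:**
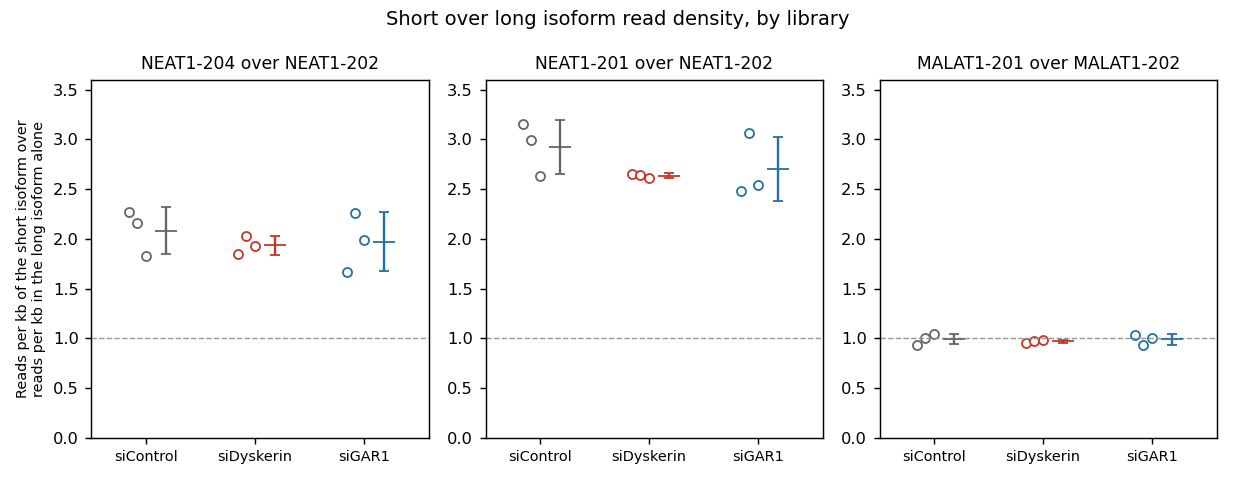
Reads per kb of the short isoform over reads per kb in the rest of the long isoform, by library, for NEAT1-204 and NEAT1-201 over NEAT1-202 and for MALAT1-201 over MALAT1-202. Each open circle is 1 library, bars with whiskers give the mean ± SD (n = 3), and the dashed line marks equal density. All NEAT1-204 values lie between 1.67 and 2.27 and all MALAT1 values between 0.93 and 1.04.

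Tested one by one, NEAT1-202 gave 0.15 on the log2 scale after dyskerin knockdown (95% interval -0.31 to 0.61) and 0.28 after GAR1 knockdown (-0.18 to 0.74), and NEAT1-201 had 0.04 (-0.15 to 0.23) and 0.17 (-0.02 to 0.36). MALAT1-202 had 0.02 (-0.45 to 0.48) and 0.21 (-0.25 to 0.68). Unequal movement of a gene's transcripts was tested with diffSpliceDGE in edgeR. Of the 5 genes with several transcripts, 0 passed in any of the 3 comparisons, against 0.174%, 0.166% and 0.198% of 12644 genes. None had an unadjusted p under 0.05. Transcripts of a gene share reads, since a read was counted in every transcript it fits. The test can therefore miss a shift, and equal movement was not shown. KCNQ1OT1 and NORAD have 1 transcript each in the files.

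Of the 62 transcripts of the 7 genes, 1 passed after dyskerin knockdown, against 6.58% of the 108808 transcripts tested, and 5 had an unadjusted p under 0.05, against 24.3%. This was OIP5-AS1-201 (8829 nt), the longest transcript of OIP5-AS1, nearly all of which is the last exon that holds the miR-7 site shown above (8499 of 8881 nt in GENCODE 44). Its normalized counts were 849.5, 941 and 1020 in siControl, 1196, 1302.5 and 1262 in siDyskerin and 1148, 1106 and 1208 in siGAR1. Both knockdown groups lay wholly above siControl, whose libraries both comparisons share. Groups did not overlap in 31.4% of all genes tested after dyskerin knockdown and in 27.7% after GAR1 knockdown. The share over all transcripts was not computed. The log2 fold change after dyskerin knockdown was 0.42 (SE 0.08, adjusted p = 0.00024 from edgeR), and with each library left out in turn it was 0.36 to 0.49 (adjusted p from 8.95e-05 to 0.0038). After GAR1 knockdown it was 0.30 (SE 0.08) with an adjusted p of 0.0107 from edgeR, just past the threshold. It met the threshold without siControl replicate 3 (0.37, adjusted p = 0.0081) but with none of the 8 other libraries left out (down to 0.24, adjusted p = 0.062, without siControl replicate 1). With the replicate block it passed (0.31, adjusted p = 0.0035), although replicate numbers were not found to pair these groups. That block raised the share of all transcripts passing from 4.12% to 5.45%. Between the knockdowns the log2 fold change of OIP5-AS1-201 was 0.12 (95% interval -0.04 to 0.28).

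The 9 shorter transcripts of OIP5-AS1, of 473 to 1482 nt, did not pass. Their log2 fold changes ran from -0.11 to 0.22 after dyskerin knockdown and from -0.10 to 0.07 after GAR1 knockdown. The highest of them after dyskerin knockdown was OIP5-AS1-205 (1269 nt), at 0.22 (adjusted p = 0.17). They share reads with one another and partly with OIP5-AS1-201. Relative to the whole gene, OIP5-AS1-201 moved by 0.14 after dyskerin knockdown and 0.12 after GAR1 knockdown (diffSpliceDGE, unadjusted p = 0.023 and 0.039, adjusted p = 1 in both), so that an unequal movement of the long and short transcripts did not pass.

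**Figure D5:**
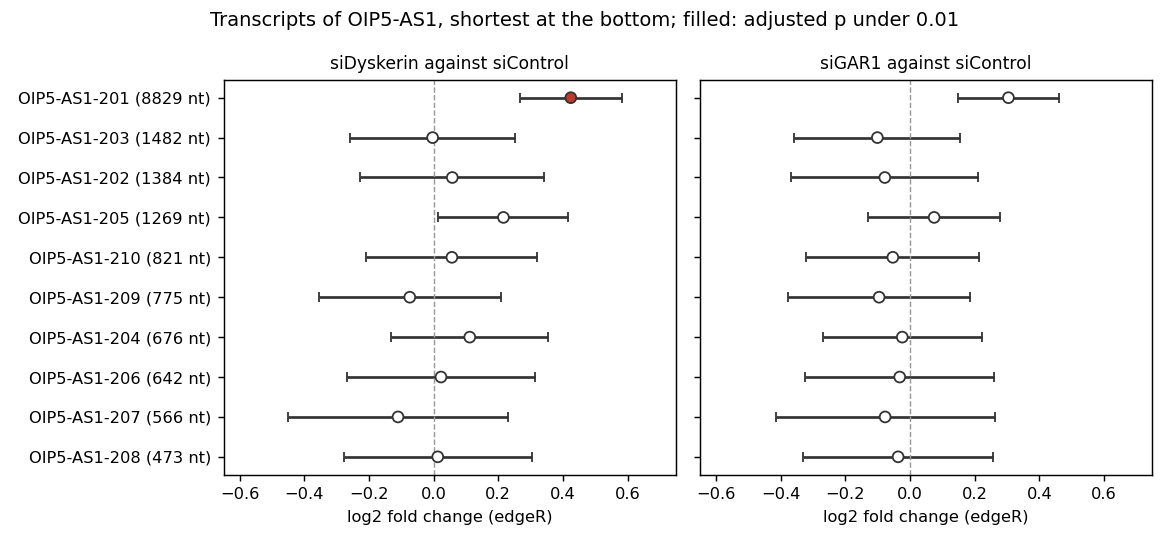
Log2 fold changes with 95% intervals from edgeR of the 10 OIP5-AS1 transcripts, ordered by length with the shortest at the bottom, in siDyskerin and in siGAR1 against siControl. The filled circle, OIP5-AS1-201 after dyskerin knockdown at 0.42, passed at an adjusted p under 0.01, and the open circles did not.

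After GAR1 knockdown 0 of the 62 transcripts passed, against 4.12% of all transcripts, and 9 had an unadjusted p under 0.05 in edgeR, against 23.6%. Among the 20 PVT1 transcripts the smallest adjusted p was that of PVT1-214 (922 nt), with 154, 165 and 193 normalized counts in siControl and 264, 183 and 270.2 in siGAR1. Replicate 2 of siGAR1 again lay within the siControl range, and the log2 fold change was 0.50 (SE 0.13, adjusted p = 0.014). With the replicate block it passed (0.49, adjusted p = 0.0044), although replicate numbers were not found to pair these groups. PVT1-212 (1535 nt), the PVT1 transcript with the most reads, had 0.10 (adjusted p = 0.51). Between the knockdowns 0 of the 62 passed, against 5.54% of all transcripts, with 11 at an unadjusted p under 0.05, against 23.9%. After dyskerin knockdown KCNQ1OT1-201 (0.38, adjusted p = 0.061) and NORAD-201 (0.23, adjusted p = 0.012) did not pass, and with the replicate block both did (adjusted p = 0.00060 and 0.0039), bringing the count from 1 to 3 while the share of all transcripts went to 8.11%. All 9 TUG1 transcripts had log2 fold changes below 0 after dyskerin knockdown, from -0.23 to -0.06, with the smallest adjusted p at 0.21. They share reads, and TUG1-201 (5673 nt), with the most, had -0.10.

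Genes that act with these RNAs were read from lists. Of 22 proteins of paraspeckles, the bodies built on long NEAT1, 5 passed as higher and 0 as lower after dyskerin knockdown, beside 3.08% of all genes higher and 3.32% lower. After GAR1 knockdown 5 passed as higher and 0 as lower, against 1.63% and 1.79%. The siControl libraries are shared by both. The list's median log2 fold changes were 0.09 and 0.12, beside 0.0033 and 0.0089 over all genes. RBM14, needed for paraspeckle assembly, gave 0.69 (adjusted p = 6.93e-05) and 0.64 (adjusted p = 0.00028). PSPC1, a paraspeckle protein of the DBHS family, gave 0.33 (adjusted p = 0.0039) and 0.32 (adjusted p = 0.0081). NUDT21, the cleavage factor subunit that favours polyadenylation of short NEAT1, gave 0.31 (adjusted p = 0.0050) and 0.36 (adjusted p = 0.0031). RBM12 (0.29) and HNRNPR (0.25) also passed in siDyskerin, and SFPQ (0.35) in siGAR1. Between the knockdowns 0 of the 22 passed in edgeR and 3 had an unadjusted p under 0.05.

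Of 28 proteins that bind or process the 7 RNAs, 1 rose and 1 fell in each comparison with siControl, which is near the shares of all genes given for these comparisons (3.08% and 3.32%, then 1.63% and 1.79%). METTL3, the catalytic subunit of the m6A methyltransferase that modifies MALAT1, fell by 0.38 after dyskerin knockdown (adjusted p = 0.00068) and by 0.35 after GAR1 knockdown (adjusted p = 0.0025). METTL14, its partner subunit, rose by 0.44 (adjusted p = 0.0025) and by 0.38 (adjusted p = 0.0098). RPP14, a subunit of RNase P, had -0.28 after dyskerin knockdown (adjusted p = 0.011). HNRNPU, a nuclear matrix protein, was lower in siDyskerin than in siGAR1 by -0.24 (adjusted p = 0.0097), the 1 protein of the list to pass between the knockdowns, where 2.61% of all genes passed as higher and 2.78% as lower. The list's medians were -0.09, 0.02 and -0.11 in the 3 comparisons.

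Of 32 genes beside the 7 loci 26 were tested. In each comparison 1 of the 26 passed, against 6.4%, 3.42% and 5.39% of all genes. With so few genes tested, a count of 1 cannot be set apart from these shares. Near NORAD, PHF20 fell by 0.35 after dyskerin knockdown (adjusted p = 0.0058) and was lower by -0.45 in siDyskerin than in siGAR1 (adjusted p = 0.0014). Near OIP5-AS1, NDUFAF1 rose by 0.43 after GAR1 knockdown (adjusted p = 0.0085) and had 0.31 after dyskerin knockdown (adjusted p = 0.030). FRMD8, near MALAT1 and NEAT1, had -0.48 after GAR1 knockdown (adjusted p = 0.012). CDKN1C, in the imprinted domain of KCNQ1OT1, had 0.46 between the knockdowns (adjusted p = 0.041).

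Some other long noncoding RNAs passed where the 7 did not. Of 35 listed 29 were tested. After dyskerin knockdown 2 rose and 1 fell, against 1.27% and 0.794% of the long noncoding RNA genes tested. After GAR1 knockdown 0 passed in edgeR, against 0.556% higher and 0.0794% lower, and 4 had an unadjusted p under 0.05. Between the knockdowns 1 was lower in siDyskerin and 0 higher, against 0.675% and 0.913%. MIAT rose by 1.11 (adjusted p = 0.0019) and PURPL, a p53-induced RNA, by 0.66 (adjusted p = 0.00050). DANCR, which hosts small nucleolar RNAs in its introns, fell by 0.59 (adjusted p = 0.00010) and was lower by -0.46 in siDyskerin than in siGAR1 (adjusted p = 0.0011). The medians of the list were 0.02, 0.02 and 0.04.

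The genes most like each RNA over the 9 libraries were found by Pearson's r of log2 CPM among the 5448 other genes with a mean of at least 5. The libraries share depth and normalization, and with so many genes and 9 points high values arise readily, so these are descriptions only. NFIB was most like MALAT1 (r = 0.99) and TCF7L2 most like NEAT1 (0.90). KMT2C was most like KCNQ1OT1 (0.98) and MICOS10 most like TUG1 (0.97). For OIP5-AS1 it was INTS6 (0.95), for NORAD FAM135A (0.99) and for PVT1 EP300 (0.94).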

How the data were processed

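Nuclear RNA was depleted of rRNA with RiboCop, made into stranded CORALL libraries and sequenced as paired ends of 50 bases. Per the submitters' notes and the study's methods, the authors used FastQC 0.11.9, Trim Galore 0.6.4, Bowtie2 2.4.1 to remove rRNA and tRNA reads, and Salmon 1.2.0 (library type ISR, sequence and position bias corrected) on GENCODE 27 transcripts, with 1 table per library. The authors deposited expected counts (reads per transcript) and TPM, with transcript lengths. Deposited reads were multiply assigned within genes, as described above.

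The identifiers of 195887 among 200401 transcripts were found in GENCODE 44, in 58425 genes, and the other 4514, with 3.69 to 3.84% of reads, were left out. Transcript lengths are those of the files, and coordinates and sequences are those of GENCODE 44, in which several transcripts have changed. Expected counts were rounded and summed per gene, and 18444 genes that passed filterByExpr were fitted over all 9 libraries with TMM factors in edgeR 4.0.16 (quasi-likelihood F-test, robust, limma 3.58.1, R 4.3.3), with Benjamini-Hochberg adjustment over all genes. A gene passed at an adjusted p under 0.01. Changes above 1 on the log2 scale were asked of called genes, and the text uses passing alone. Transcripts (108808) were tested alike and their usage with diffSpliceDGE. Isoform ratios, with 1 read added, were tested by exact permutation. DESeq2 1.42.0 was an alternative. The scripts were tested on simulated data. Other tools were Python 3.11.15, numpy 2.4.6, pandas 2.3.3, scipy 1.17.1 and matplotlib 3.10.9.

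Named were the 7 RNAs, DKC1 and GAR1, the NEAT1 and MALAT1 isoforms, transcripts that passed and up to 3 most-read transcripts of the other genes, the genes of smallest p of each list (up to 3 per comparison) and the most alike genes. OIP5-AS1-205, PVT1-214, HNRNPR and SFPQ were named after their values were seen. Not every listed gene is reported here. The 7 RNAs and the lists were chosen with earlier results of these data known. Same-numbered siControl and siDyskerin libraries deviated together from their group means (r = 0.54, 0.441 and 0.251 over 9323 genes), so replicate numbers were taken to pair these groups. The main fits did not use this pairing, and fits with replicate numbers as a block are given as alternatives. The methods call the replicates biological without saying what separated them, so p-values measure the spread between these libraries, which may be technical. Intervals come from the edgeR fits.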

Additional observations from a re-analysis of the deposited data

How the results depend on the processing

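Log2 fold changes of single genes kept their direction and side of the threshold in most alternatives, and none of the 7 genes passed in any comparison with relative log expression factors, library totals, no filter on low counts, counts from length-scaled TPM or the replicate block on all 9 libraries. After dyskerin knockdown 1 gene passed with the most-read transcript alone (OIP5-AS1; 9.61% of all genes), 1 with DESeq2 (NORAD; 10.3%) and 2 with the replicate block on siControl and siDyskerin alone (KCNQ1OT1 and NORAD; 12.6%, or 2270 genes), an alternative chosen after seeing the data. Between the knockdowns 1 passed with DESeq2 (NORAD; 9.21%). The cause was not tested. Of the 62 transcripts, those passing after dyskerin knockdown numbered 2 with no filter (5.93% of all transcripts), 2 with library totals (6.44%), 3 with the replicate block (8.11%) and 3 with that block on both groups alone (14.4%). After GAR1 knockdown they numbered 5 with no filter (4.35%) and 3 with the block (5.45%), and between the knockdowns 1 with no filter (5.21%) and 1 with the block (7%). Same-numbered libraries did not deviate together between siControl and siGAR1 (r = -0.242, -0.031 and 0.032) or in all pairs between siDyskerin and siGAR1 (r = -0.004, 0.105 and 0.275), so those groups share only a number. The block moved the genes passing from 1180 to 1318 and from 630 to 711 after dyskerin and GAR1 knockdown and changed no call of the 7 genes.

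Small log2 fold changes reversed. With the most-read transcript MALAT1 gave -0.00067 after dyskerin knockdown. With length-scaled TPM counts NEAT1 gave -0.0016 after dyskerin knockdown, and OIP5-AS1 -0.044 and NORAD -0.024 after GAR1 knockdown, where NORAD gave -0.0078 with no filter. With each library left out in turn, MALAT1 ran from -0.12 to 0.089 and PVT1 from -0.071 to 0.00090 after dyskerin knockdown, TUG1 from -0.044 to 0.012 and NORAD from -0.042 to 0.025 after GAR1 knockdown, and KCNQ1OT1 from -0.077 to 0.17 between the knockdowns.

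With each library left out, the long over short difference of NEAT1 ran from 0.04 to 0.19 after dyskerin knockdown, from -0.03 to 0.19 after GAR1 knockdown and from -0.085 to 0.13 between the knockdowns, and that of MALAT1 from -0.0011 to 0.076, from -0.038 to 0.048 and from -0.0047 to 0.072. With another nested transcript as the short one, the MALAT1 difference reversed after dyskerin knockdown with MALAT1-214 (-0.075), MALAT1-216 (-0.15), MALAT1-203 (-0.087), MALAT1-204 (-0.27), MALAT1-208 (-0.019), MALAT1-215 (-0.086) and MALAT1-206 (-0.096). It reversed after GAR1 knockdown with MALAT1-214 (-0.067), MALAT1-216 (-0.20), MALAT1-203 (-0.072), MALAT1-204 (-0.46), MALAT1-208 (-0.0036), MALAT1-213 (-0.039), MALAT1-215 (-0.21) and MALAT1-206 (-0.21). Between the knockdowns it reversed with MALAT1-214 (-0.0084), MALAT1-203 (-0.015), MALAT1-208 (-0.015), MALAT1-211 (-0.00019), MALAT1-205 (-0.053), MALAT1-212 (-0.037), MALAT1-210 (-0.12) and MALAT1-209 (-0.089).

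With 3 libraries a group, the spread between libraries of MALAT1, NEAT1 and KCNQ1OT1 limits what their intervals can show. Multiply assigned reads let no gene sum stand for molecules.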
